A study of Pinellia ternata with 6 samples.

Results

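The transcripts described here are strongly expressed unigenes of Pinellia ternata that held a nearly level abundance across 6 seedling samples from a line and its chromosome-doubled derivative. A unigene is a gene-level group of assembled transcript isoforms, and its abundance is the sum of its isoforms in FPKM, the number of sequenced fragments relative to transcript length and library size. Members were selected on these values: a unigene qualified when its mean over the 6 samples was at least 100 and below 500 FPKM and its highest sample was at most 1.25 times its lowest sample. These limits chose 60 of the 752 unigenes with a mean of 100 to 500 FPKM, and 60 of all 62591 unigenes in the table. The choice used the measured values of all 6 samples and no line labels, so the count of 60 is the same however the samples are grouped. Small differences between samples, and between the lines, are therefore set by the choice and are given below as a description with no test.

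RNA-seq of whole seedlings was performed in T2 line, an octoploid (8x, 2n = 104), and in T2Plus line, a sixteen-ploid line (16x, 2n = 208) obtained from T2 line with colchicine, with 3 samples of each line. T2 line goes back to a single superior plant raised through tissue culture, so each ploidy level is represented by 1 line. Seedlings were collected at 30 days after planting, neither line received a further treatment, and 5 seedlings per group were mixed before RNA extraction. The sources leave unclear whether each replicate had its own mix, so the spread between samples may be partly technical. In such whole-seedling RNA, fewer cells of a type and less RNA per cell cannot be told apart.

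Transcripts with a level abundance across conditions serve as reference genes, against which the amounts of other transcripts are scaled in quantitative PCR. Genes of the cytoskeleton, of protein synthesis and of protein turnover are the usual choices, since every living cell needs them. In a chromosome-doubled plant every gene has more copies and cells are often larger, so the amount of RNA per cell may change as a whole. FPKM values are relative to the RNA sequenced, and a level FPKM says nothing about the number of transcripts per cell.

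A sample of T2 line stood apart from the other libraries. Among the 752 unigenes of 100 to 500 FPKM, 721 (95.9%) lay within 1.25-fold of each other in T2 replicates 1 and 3, against 303 (40.3%) in T2 replicates 1 and 2 and 313 (41.6%) in T2 replicates 2 and 3. The 3 pairs of T2Plus samples had 657 to 710 unigenes within 1.25-fold. Pairs across the lines had 311 to 319 without T2 replicate 2 and 195 to 239 with it. The map of sample pairs shows T2 replicate 2 as a row of low shares against every other sample. Its 100 strongest unigenes held 19.5% of its summed FPKM, against 14.7% to 15.8% in the other samples. The FPKM worth of 1 read, from which relative depth can be read, was 0.706 of that of T2 replicate 1 in T2 replicate 2 and 1.02 to 1.22 of it in the other 4 samples. A smaller worth goes with more reads, so T2 replicate 2 was the deepest of the 6 libraries. The part of these differences in the results was not tested. Seedling tissue was checked by oxygen-evolving enhancer protein 1, a subunit of photosystem II, which stood at 2443 to 4697 FPKM in all 6 samples and was lower in every T2Plus sample than in every T2 sample, without passing the limma test (adjusted p of 0.0834). The other marker, magnesium-chelatase subunit ChlD of chlorophyll synthesis, read only 0.517 to 7.13 FPKM, and its lines overlapped.

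**Figure D1:**
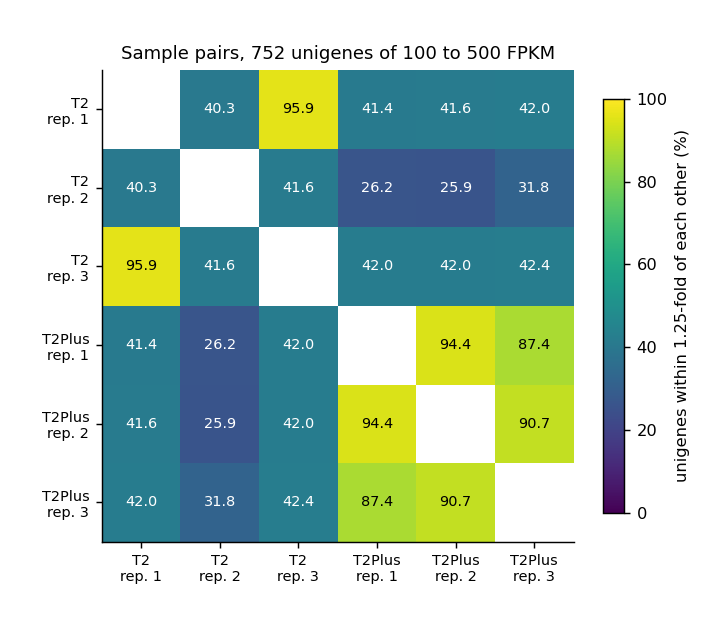
Share of the 752 unigenes with a mean of 100 to 500 FPKM whose values lie within 1.25-fold of each other, for each pair of the 6 samples, with the share in percent printed in each cell and on the colour scale. T2 replicate 2 has 40.3% and 41.6% with the other T2 samples, whereas the other pairs within a line have 87.4% to 95.9%.

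The 60 flat unigenes had means of 100.1 to 440 FPKM with a median of 164 FPKM, close to the median of 152 FPKM of all 752 unigenes in that range. Of the 60 members, 45 had a mean below 200 FPKM, 11 a mean of 200 to 300 FPKM and 4 a mean of at least 300 FPKM. Together they held 1.69% to 2.02% of the summed FPKM of a sample. None was listed at 0 in any sample. The ratio of the highest to the lowest sample ran from 1.08 to 1.25 with a median of 1.19, whereas the median ratio of the 752 unigenes was 1.72. Only 5 members had a ratio of at most 1.1 and 25 had a ratio over 1.2. The coefficient of variation over the 6 samples ran from 2.56% to 11.5% with a median of 6.59%.

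The share of flat unigenes differed between abundance classes. With the same limit of 1.25, 13 of 31343 unigenes (0.0415%) with a mean of 1 to 10 FPKM were flat, and 114 of 5673 (2.01%) with a mean of 10 to 30 FPKM. At a mean of 30 to 100 FPKM, 195 of 2709 (7.20%) were flat, against 60 of 752 (7.98%) at 100 to 500 FPKM and 7 of 77 (9.09%) at 500 FPKM or more. Within a line, 622 of the 752 unigenes (82.7%) stayed within 1.25-fold over the 3 T2Plus samples and 261 (34.7%) over the 3 T2 samples, which include T2 replicate 2. Both lines were flat, each on its own, in 245 unigenes, and 60 of these were also level between the lines.

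The samples pulled the 60 members in different directions by a few percent. The geometric mean of the members was 159, 166 and 160.3 FPKM in T2 replicates 1 to 3, and 158, 161 and 168 FPKM in T2Plus replicates 1 to 3. T2Plus replicate 3 was the highest of the 6 samples in 22 members and T2 replicate 2 in 20, while T2 replicate 1 was the lowest in 16 and T2Plus replicate 1 in 14. T2 replicate 2 lay above both other T2 samples in 38 members and below both in 15. T2Plus replicate 3 was the highest T2Plus sample in 44 members. The spread within T2 line was larger than within T2Plus line in 36 members and smaller in 24. In the plot of members by sample, the medians of T2 replicate 2 and T2Plus replicate 3 stand above the line of equal abundance.

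**Figure D2:**
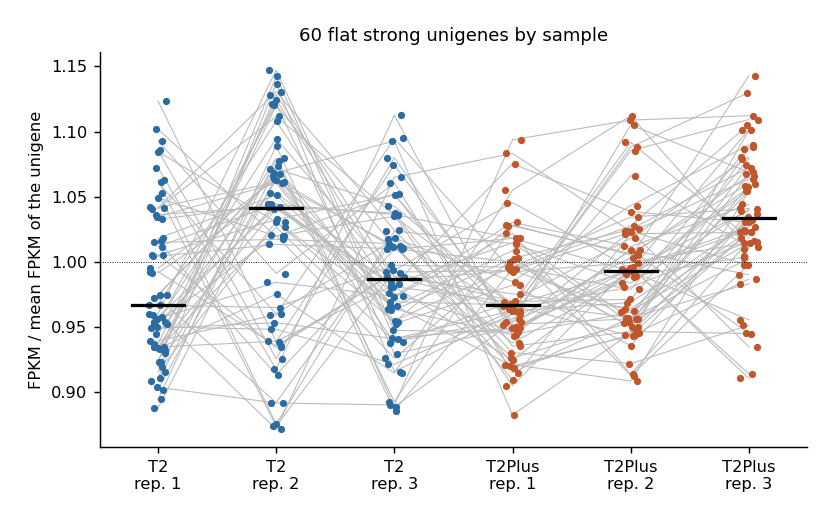
FPKM of each of the 60 flat unigenes in each of the 6 samples, divided by the mean of that unigene over the 6 samples, with 1 point per unigene and sample, thin lines joining the values of a unigene and black bars for the median of each sample. Medians are highest in T2 replicate 2 and T2Plus replicate 3, which were the highest sample of 20 and 22 members.

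The flattest member was TRINITY_DN4454_c0_g1. It read 103, 104 and 103 FPKM in T2 replicates 1 to 3 and 102, 97.3 and 105 FPKM in T2Plus replicates 1 to 3. The 2 lines overlapped, and the 3 T2 samples differed from each other by less than the 3 T2Plus samples did. Its ratio of highest to lowest sample was 1.08 and its coefficient of variation 2.56%.

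Next came TRINITY_DN302_c0_g1, with 152, 152 and 157 FPKM in T2 line and 157, 163 and 164 FPKM in T2Plus line. TRINITY_DN52187_c0_g1 had 212, 219 and 216 FPKM in T2 line and 229, 225 and 232 FPKM in T2Plus line. The latter had a ratio of only 1.09, and yet each T2Plus sample was above each T2 sample, by 5.90% between the line means.

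TRINITY_DN11670_c0_g3 read 102, 109 and 102 FPKM in T2 line and 102, 99.2 and 105 FPKM in T2Plus line. It had the smallest pairwise variation against the other members, with a mean SD of 0.0895 of its log2 ratios to them, where the median member had 0.115 and the largest value was 0.185. This measure takes the members as each other's reference. For a given set of members it does not move when all values of a sample are multiplied by a factor. The set itself changed with the scaling, as described further on.

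TRINITY_DN15741_c0_g1 read 99.2, 109 and 108 FPKM in T2 line and 106, 103 and 99.5 FPKM in T2Plus line. TRINITY_DN30761_c0_g1 read 162, 168 and 157 FPKM in T2 line and 152, 159.7 and 165 FPKM in T2Plus line. In both, the lines overlapped, and the T2Plus mean differed from the T2 mean by -2.21% and -2.10%.

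TRINITY_DN4795_c0_g1 read 193, 175 and 185 FPKM in T2 line against 175, 176 and 187 FPKM in T2Plus line. TRINITY_DN1666_c0_g1 read 192, 194 and 179 FPKM against 175, 178 and 196 FPKM. In both, the range of a line lay within that of the other line. TRINITY_DN11616_c0_g1 read 113, 109 and 111 FPKM in T2 line and 104, 101 and 106 FPKM in T2Plus line, so that all T2Plus samples were below all T2 samples with a ratio of only 1.11.

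Among the strongest members, TRINITY_DN5629_c1_g1 read 358, 368 and 375 FPKM in T2 line and 339, 341 and 357 FPKM in T2Plus line. It is among the 10 flattest members as well, with a ratio of 1.104, and its lines did not overlap. TRINITY_DN16730_c0_g2 read 301, 277 and 316 FPKM in T2 line and 305, 323 and 338 FPKM in T2Plus line. TRINITY_DN59415_c0_g1 read 284, 342 and 309 FPKM in T2 line and 283, 291 and 323 FPKM in T2Plus line. TRINITY_DN669_c0_g1 read 288, 239 and 272 FPKM in T2 line and 286, 272 and 285 FPKM in T2Plus line. In these 3 members T2 replicate 2 was the lowest or the highest of all samples, and the lines overlapped.

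The strongest member of all, TRINITY_DN1115_c0_g1, was also the one nearest to the limit on the ratio. It read 397, 392 and 391 FPKM in T2 line and 481, 488 and 489 FPKM in T2Plus line, which gives 394 ± 3.26 FPKM and 486 ± 4.33 FPKM (SD, n = 3 each). Within each line its highest sample was 1.02 times its lowest, and the T2Plus mean was 23.4% above the T2 mean. It passed the limit of 1.25 with a ratio of 1.249, so it is level by the rule and still separates the lines by far more than the spread of its replicates.

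Other members, chosen here after their values were seen, show which samples set the ratio. T2 replicate 2 alone was high in TRINITY_DN818_c2_g1, with 149.95, 185 and 153 FPKM in T2 line and 154, 161 and 171 FPKM in T2Plus line. It was high likewise in TRINITY_DN15880_c0_g1, with 213, 260.5 and 228 FPKM in T2 line and 222, 226 and 234 FPKM in T2Plus line, and it was the lowest sample in TRINITY_DN6177_c0_g1, with 124, 106 and 129 FPKM in T2 line and 109, 117 and 109 FPKM in T2Plus line. T2Plus replicate 3 alone was high in TRINITY_DN20433_c0_g1, with 183, 202 and 185 FPKM in T2 line and 188, 197 and 225 FPKM in T2Plus line. In TRINITY_DN19711_c0_g1 5 samples lay between 136 and 137 FPKM and T2Plus replicate 1 stood at 122 FPKM.

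The line difference left among the 60 members was small by construction, since the limit allows no more than 0.32 on the log2 scale. The log2 ratio of the T2Plus mean to the T2 mean ran from -0.19 to 0.30 with a median of -0.01. T2Plus line was higher in 28 members and lower in 32, and 43 members lay within 0.1 of 0. The median size of the line difference was 0.071, and the median SD within the lines was 0.085 on the same log2 scale. The SD is that of single samples and the difference that of line means, so their sizes cannot be compared directly, and the rule bounds both. The lines overlapped in 47 members. They did not overlap in 13, with T2Plus line higher in 7 and lower in 6. Of all 752 unigenes in this range of abundance, 63.2% had lines that did not overlap, and nothing is read from the difference because the rule chose on the same values.

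The largest rises left were those of TRINITY_DN1115_c0_g1, TRINITY_DN27702_c0_g1 and TRINITY_DN3661_c0_g1. TRINITY_DN27702_c0_g1 read 253, 253 and 245 FPKM in T2 line and 256, 289.9 and 301 FPKM in T2Plus line, a log2 difference of 0.17. TRINITY_DN3661_c0_g1 read 93.4, 97.6 and 91.6 FPKM in T2 line and 106, 111 and 101 FPKM in T2Plus line, likewise 0.17. Every T2Plus sample was above every T2 sample in all 3 unigenes.

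The largest falls left were those of TRINITY_DN10771_c0_g1, TRINITY_DN351_c0_g1 and TRINITY_DN8763_c0_g1. TRINITY_DN10771_c0_g1 read 199, 216 and 196 FPKM in T2 line and 178, 176 and 182 FPKM in T2Plus line, a log2 difference of -0.19. TRINITY_DN351_c0_g1 read 124, 133 and 124 FPKM in T2 line and 108, 119 and 109 FPKM in T2Plus line, a difference of -0.18. TRINITY_DN8763_c0_g1 read 172, 159 and 164 FPKM in T2 line and 146, 148 and 148 FPKM in T2Plus line, a difference of -0.17. In these 3 unigenes every T2Plus sample was below every T2 sample.

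All unigenes were fitted with limma after a log2 transform of FPKM + 1. Calls between the lines needed at least a 2-fold change together with an adjusted p (Benjamini-Hochberg) no higher than 0.05. All 60 members passed the filter of that fit, which asked for at least 1 FPKM in at least 3 samples. None was called, since a ratio of at most 1.25 cannot reach 2-fold, and 1 had an unadjusted p under 0.05 by limma. Of the 28536 unigenes tested, 13.5% were called and 29.8% had an unadjusted p under 0.05. With the adjusted p alone, 17.2% of all unigenes and 1 member passed. This member was TRINITY_DN1115_c0_g1, with a log2 change of 0.30 ± 0.072 (SE) and an adjusted p of 0.0327 by limma. Nothing is read from these counts, which rest on the values that chose the members.

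Unigenes that were level within each line, without a limit between the lines, put the members in a frame. There were 245 such unigenes, and their log2 line difference ran from -2.65 to 2.19 with a median of -0.20. Of these, 84 were higher and 161 lower in T2Plus line, and 7 differed by at least 1 upward and 25 by at least 1 downward. Over the 750 unigenes of this abundance with values above 0 in both lines, the median was -0.26, and 237 were higher and 513 lower in T2Plus line. The lowest member, at -0.19, was above both medians, as the plot of line differences by set shows. The median of this range of abundance moved with the scaling, to -0.28 with the median ratio, -0.11 with equal sums, -0.10 with the factors divided out and 0.02 with quantile normalization, scalings that are described further on. Without T2 replicate 2, 594 unigenes were level within each line, with a median of -0.11 and a range from -5.89 to 2.23, and 252 were higher and 342 lower in T2Plus line.

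**Figure D3:**
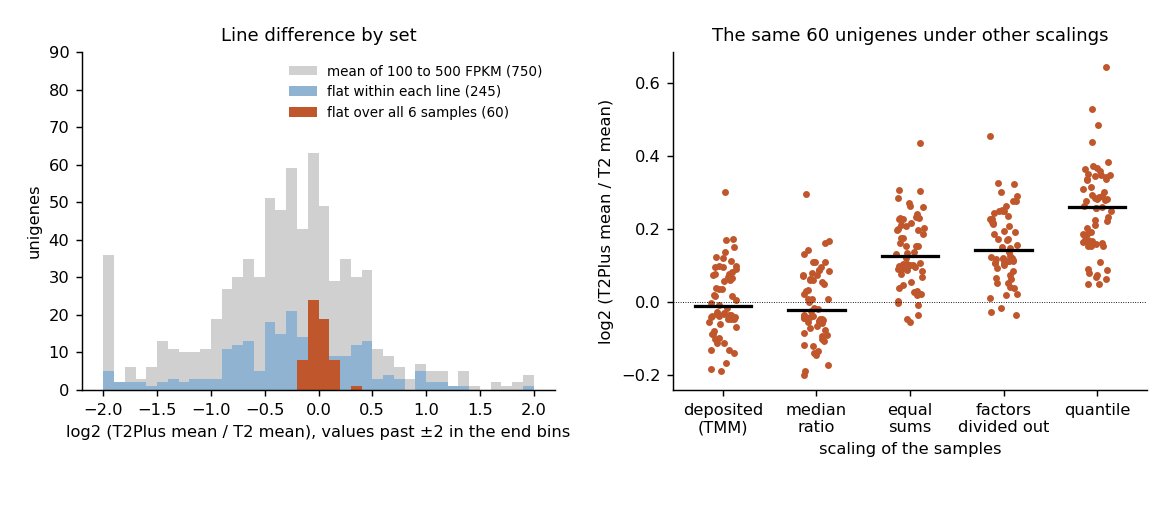
Left, number of unigenes by log2 ratio of the T2Plus mean to the T2 mean, for 750 unigenes with a mean of 100 to 500 FPKM, for 245 of them that were flat within each line and for the 60 flat over all samples, with values past 2 in the end bins. Right, the same ratio for the 60 members under the deposited scaling and 4 others, with black bars at the medians, which were -0.01, -0.02, 0.13, 0.14 and 0.26 from left to right.

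The limits cut through a continuous range of values. Just inside the ratio limit, TRINITY_DN1337_c0_g1 read 116, 138 and 113 FPKM in T2 line and 127, 132 and 142 FPKM in T2Plus line, and TRINITY_DN10990_c0_g2 read 106, 132 and 106 FPKM against 111, 124 and 117 FPKM. Just outside, with ratios of 1.25 to 1.26, TRINITY_DN2355_c1_g1 read 110.0, 121 and 111 FPKM against 99.5, 99.8 and 96.9 FPKM. TRINITY_DN4672_c0_g1 read 391, 387 and 409.7 FPKM against 459, 454 and 486 FPKM. TRINITY_DN660_c2_g1 read 210.45, 167 and 202 FPKM against 182, 169 and 172 FPKM. At the limits on the mean, TRINITY_DN3661_c0_g1 entered with a mean of 100.1 FPKM and the flat unigene TRINITY_DN11110_c0_g1 stayed out with 98.8 FPKM. No flat unigene lay between TRINITY_DN1115_c0_g1, with a mean of 440 FPKM, and TRINITY_DN5913_c0_g1, with 525 FPKM.

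A sample that takes no part in the choice gives values that the rule did not fix. The limits were therefore applied to 5 samples at a time and the remaining sample was read. Leaving out T2 replicate 3 chose 63 unigenes, of which 60 (95.2%) stayed within the limit when that sample was added. Leaving out T2Plus replicate 2 chose 62, of which 59 (95.2%) stayed. Without T2Plus replicate 3, T2 replicate 1 or T2Plus replicate 1 the shares were 87.9% of 66, 87.1% of 70 and 84.3% of 70. The left-out sample differed from the mean of the other 5 by a median log2 of -0.07 to 0.07 in these 5 cases.

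T2 replicate 2 behaved otherwise. The 5 other samples chose 187 unigenes, and 60 of them (32.1%) stayed within the limit with T2 replicate 2. Its log2 ratio to the mean of the other 5 samples ran from -1.56 to 0.91 with a median of 0.23, and it was above that mean in 134 unigenes and below it in 53. Thus the number 60 rests mainly on this library, and without it 187 of 721 unigenes in the range were level. Among these 187 the median log2 line difference was 0.005, with a range from -0.24 to 0.30, and 96 were higher and 91 lower in T2Plus line. All 60 members are among them. The plot of left-out samples shows the wide spread of T2 replicate 2 beside the narrow spread of the others.

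**Figure D4:**
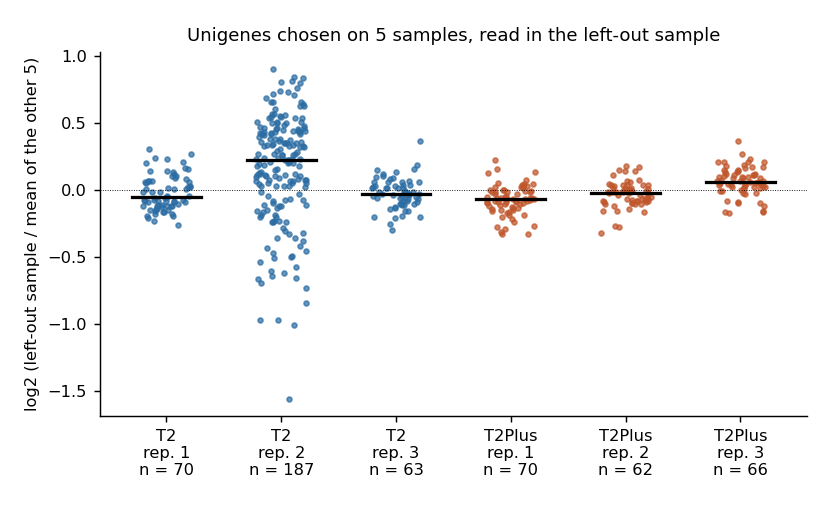
Log2 ratio of a left-out sample to the mean of the other 5 samples, for the unigenes that the same limits chose on those 5, with 1 point per unigene, black bars at the medians and n below each sample. Values of T2 replicate 2 span -1.56 to 0.91 over 187 unigenes, and those of the other samples lie between -0.33 and 0.37.

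How level a transcript is depends on how the samples are scaled to each other. The deposited values carry a factor for each sample, taken as the TMM scaling (trimmed mean of M-values) of the study, of 1.08 to 1.13 in T2 line and 0.983 to 1.00 in T2Plus line, as a comparison of 207 unigenes with the study's own expression table shows. With these factors divided out 76 unigenes were flat and with each sample brought to the same sum 78, but only 36 of the 60 members were among them in each case. The members then had a median log2 line difference of 0.14 and 0.13, and T2Plus line was higher in 57 and 55 of them. Rescaling by the median ratio left 50 flat unigenes with 42 members, a median of -0.02 and 28 members higher in T2Plus line. Quantile normalization, which gives every sample the same distribution, left 91 flat unigenes with 10 members, a median of 0.26 and all 60 members higher in T2Plus line. The median over all tested unigenes moved as well, from 0.10 on the deposited scale to 0.20 with equal sums, 0.21 with the factors divided out, 0.10 with the median ratio and 0.01 with quantile normalization. Both the list and the direction left between the lines therefore changed with the scale.

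Of the 60 members, 4 stayed within the limit of 1.25 under all 5 scalings. TRINITY_DN340_c1_g2 read 119, 127 and 121 FPKM in T2 line and 112, 118 and 120.25 FPKM in T2Plus line as deposited, and its largest ratio under any scaling was 1.199. TRINITY_DN14534_c0_g2 read 111, 114 and 102 FPKM against 105, 100.3 and 111 FPKM, with a largest ratio of 1.21. TRINITY_DN11670_c0_g3 and TRINITY_DN11616_c0_g1, whose values stand above, had a largest ratio of 1.22 each. All 4 had a mean of 103 to 119.7 FPKM, in the lower part of the range.

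On the deposited scale, combinations of members were more level than the flattest member alone. The flattest member varied by a ratio of 1.08 and a coefficient of variation of 2.56%. The geometric mean of the 2 flattest varied by 1.05 and 1.70%, that of the 3 flattest by 1.06 and 2.08%, that of the 5 flattest by 1.04 and 1.54% and that of the 10 flattest by 1.04 and 1.72%. Over all 60 the ratio was 1.06 and the coefficient of variation 2.34%. The T2Plus mean divided by the T2 mean was 0.982 for the flattest member, 1.01 for the 2 flattest, 1.03 for the 3 flattest, 1.01 for the 5 flattest, 0.984 for the 10 flattest and 1.00 for all 60. These values describe the samples that chose and ranked the members and are no estimate for other plants. Combinations were not recalculated under the other scalings. There, T2Plus line was higher in 55 members with equal sums, 57 with the factors divided out, 60 with quantile normalization and 28 with the median ratio. A shift shared by the members is not removed by combining them.

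A level sum does not fix each isoform within it, although it ties their changes together, and the isoforms were therefore tested. Reads that fit several isoforms were divided among them by estimation, so isoform values are less certain than their sum. A single isoform was present for 52 members and several for 8, with 19 isoforms in all, of which 18 passed the filter. In the limma fit of all 29559 isoforms, 13.6% were called, and among the isoforms of these 8 members 2 were called, 1 higher and 1 lower in T2Plus line. With the adjusted p alone, 5 of the 18 passed, against 17.2% of all isoforms tested. Lines did not overlap in 11 of the 18, against 35.9% of all isoforms tested. Of the 752 unigenes with a mean of 100 to 500 FPKM, 63.2% had lines that did not overlap. Isoforms under a level sum move against each other, so the 18 are not separate cases and nothing is read from these shares.

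The sum of TRINITY_DN10267_c0_g1 read 121, 123 and 141 FPKM in T2 line and 127, 128 and 130.4 FPKM in T2Plus line. Its isoform i1 read 48.1, 35.1 and 57.6 FPKM in T2 line and 4.92, 5.38 and 4.285 FPKM in T2Plus line. Isoform i1 thus fell from 46.9 ± 11.3 to 4.86 ± 0.551 FPKM (SD, n = 3 each), while the sum of the unigene stayed level. The log2 change of i1 was -3.01 ± 0.22 (SE), with an adjusted p of 7.18e-04 by limma. Isoform i7 had higher values in T2Plus line, with 72.6, 88.1 and 83.0 FPKM in T2 line and 123, 123 and 126 FPKM in T2Plus line. Its log2 change of 0.61 had an adjusted p of 0.00946 by limma but was below 2-fold. As a share of the unigene, i1 made up 28.5% to 41.0% in T2 line and 3.29% to 4.19% in T2Plus line.

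TRINITY_DN8055_c0_g2 also changed in make-up, with a sum of 100.3, 101 and 105 FPKM in T2 line and 115, 111 and 111 FPKM in T2Plus line. The sum, though level by the rule, was higher in every T2Plus sample than in every T2 sample, by 10.1% between the line means. Isoform i2 read 18.3, 12.7 and 24.8 FPKM in T2 line and 57.8, 58.8 and 53.7 FPKM in T2Plus line. Isoform i1 read 82.0, 88.0 and 80.6 FPKM in T2 line and 57.6, 52.6 and 56.8 FPKM in T2Plus line. Isoform i2 rose with a log2 change of 1.61 ± 0.23 (SE) and an adjusted p of 0.00582 by limma, and i1 changed by -0.58 with an adjusted p of 0.00849 by limma, below 2-fold. The share of i2 was 12.6% to 23.5% in T2 line and 48.6% to 52.8% in T2Plus line. The plot of isoforms and neighbouring unigenes shows both exchanges under a level sum. Since the rule held the sum level, the opposite move of the other isoform follows from the choice and is no separate result.

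The other members with several isoforms moved less. In TRINITY_DN434_c0_g1, isoform i1 went from 37.7 ± 5.50 to 24.4 ± 1.25 FPKM (SD, n = 3 each), with a log2 change of -0.60 and an adjusted p of 0.0305 by limma, below 2-fold. Isoform i6 of TRINITY_DN1469_c0_g1 read 10.8, 3.35 and 10.8 FPKM in T2 line and 22.4, 20.3 and 20.0 FPKM in T2Plus line, with an adjusted p of 0.0682 by limma, and was not called. The isoforms of TRINITY_DN669_c0_g1 held 69.4% to 76.0% and 24.0% to 30.6% of the sum in T2 line, and 80.2% to 80.5% and 19.5% to 19.8% in T2Plus line, with no isoform past the test. The major isoforms of TRINITY_DN3486_c0_g1, TRINITY_DN6177_c0_g1 and TRINITY_DN6629_c0_g1 held between 50.2% and 92.7% of the sum in every sample, with adjusted p of 0.208 to 0.983 by limma. With the highest isoform taken in place of the sum, 53 of the 60 members were still flat. For the 52 members with a single isoform the highest isoform is the sum, so only the 8 with several could change. The 7 that were lost were TRINITY_DN10267_c0_g1, TRINITY_DN1469_c0_g1, TRINITY_DN3486_c0_g1, TRINITY_DN434_c0_g1, TRINITY_DN6629_c0_g1, TRINITY_DN669_c0_g1 and TRINITY_DN8055_c0_g2.

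**Figure D5:**
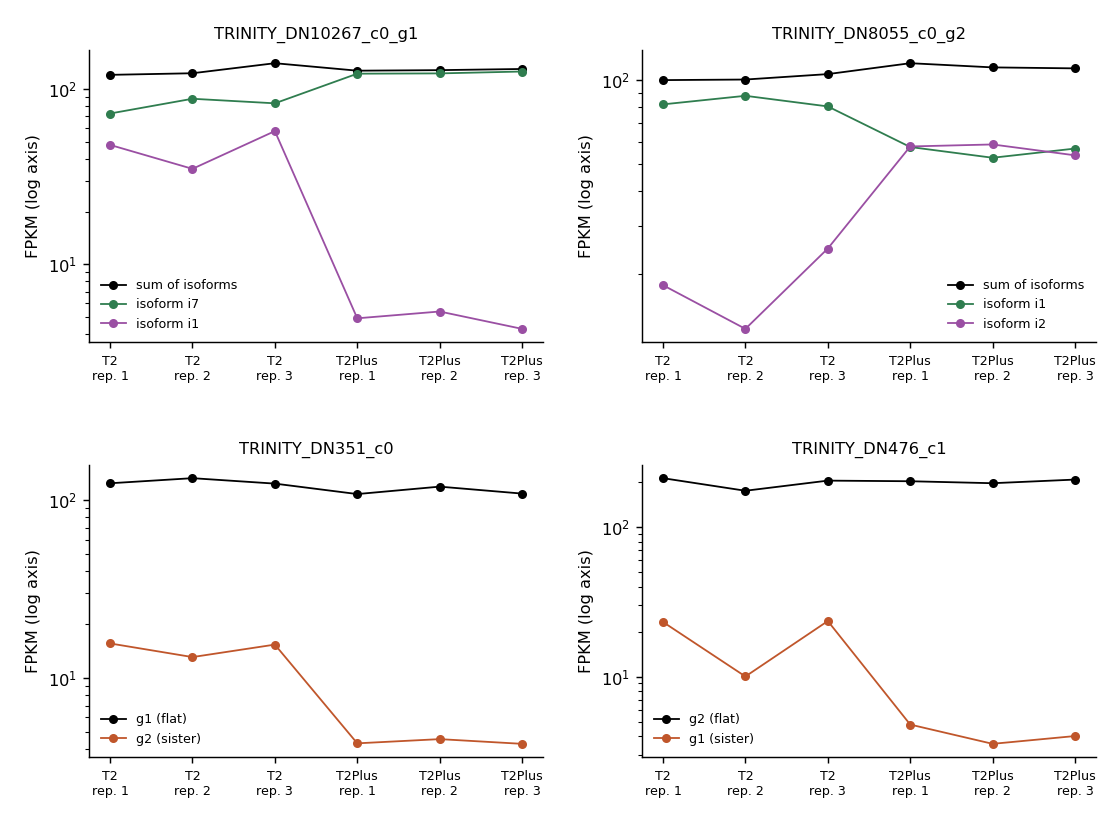
FPKM in the 6 samples on logarithmic axes, for the sums and isoforms of 2 flat unigenes in the upper panels, and for 2 flat unigenes with a neighbouring unigene of the same assembly cluster in the lower panels. Isoform i1 of TRINITY_DN10267_c0_g1 fell from 46.9 to 4.86 FPKM and isoform i2 of TRINITY_DN8055_c0_g2 rose from 18.6 to 56.8 FPKM, while the unigene sums stayed within 1.25-fold.

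The assembler gives unigenes from the same assembly graph a shared cluster number, and 13 members had 15 such neighbours in the table. Neighbours can be copies or alleles of a gene, or fragments of the same transcript, and reads can be split between them. None of the 15 was flat, the smallest ratio of highest to lowest sample being 1.35. All were below 100 FPKM, where few unigenes were flat. The flat share was 0.0415% at a mean of 1 to 10 FPKM, 2.01% at 10 to 30 FPKM and 7.20% at 30 to 100 FPKM. Nothing is therefore read from the lack of flat neighbours. All 15 were tested and 3 were called, where 13.5% of all unigenes were.

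TRINITY_DN351_c0_g2 read 15.6, 13.1 and 15.4 FPKM in T2 line and 4.29, 4.53 and 4.27 FPKM in T2Plus line. It fell by 1.55 on the log2 scale with an SE of 0.188 and an adjusted p of 0.00363 by limma, while its flat neighbour TRINITY_DN351_c0_g1 stayed between 108 and 133 FPKM. That neighbour was itself lower in every T2Plus sample than in every T2 sample, with a log2 difference of -0.18. TRINITY_DN351_c0_g2 made up 11.6% of the level of the flat unigene in T2 line but 3.90% of it in T2Plus line.

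TRINITY_DN476_c1_g1 read 23.2, 10.02 and 23.6 FPKM in T2 line and 4.77, 3.54 and 3.997 FPKM in T2Plus line, a log2 change of -1.88 ± 0.35 (SE) with an adjusted p of 0.0148 by limma. The flat unigene beside it, TRINITY_DN476_c1_g2, read 213, 176 and 206 FPKM in T2 line and 204, 197.5 and 209 FPKM in T2Plus line. TRINITY_DN52187_c0_g3 rose from 4.35, 2.38 and 4.85 FPKM in T2 line to 10.01, 13.2 and 23.1 FPKM in T2Plus line, a log2 change of 1.72 ± 0.37 (SE) with an adjusted p of 0.0245 by limma. The calls of TRINITY_DN476_c1_g1 and TRINITY_DN52187_c0_g3 were lost in 5 of 13 alternative settings each, with adjusted p up to 0.0594 and 0.0774 by limma. Both were lost without T2 replicate 1, without T2Plus replicate 2 and without T2Plus replicate 3. TRINITY_DN476_c1_g1 was lost besides without T2 replicate 3 or T2Plus replicate 1, and TRINITY_DN52187_c0_g3 without T2 replicate 2 or without the filter, whereas TRINITY_DN351_c0_g2 and the 2 called isoforms were called in all 13.

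The identity of the members is not known from the tables at hand. None of the 60 is among the 974 unigenes of the table that the shortened annotation holds. None is among the 1179 unigenes found in the shortened list of differentially expressed genes or the 362 found in its GO and KEGG lists, and 1 member, TRINITY_DN10267_c0_g1, is among the 2303 found in the shortened expression table. Absence from the list of differentially expressed genes follows largely from the rule, since the study asked for at least a 2-fold change there. The absence from shortened tables says nothing about the function of the members.

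Unigenes with a Swiss-Prot name could be compared with the rule instead. Of 270 such unigenes, 16 had a mean of 100 to 500 FPKM, a range in which 7.98% of all unigenes were flat. At that share nothing can be read from 16 unigenes, and none of them was flat. The nearest, chosen after their values were seen, was the beta subunit of pyrophosphate--fructose 6-phosphate 1-phosphotransferase, an enzyme of sugar metabolism, with 274, 299 and 277 FPKM in T2 line and 235, 244 and 258 FPKM in T2Plus line and a ratio of 1.27. Next was the chloroplastic/mitochondrial protease FTSH 9, with 202, 197 and 206 FPKM in T2 line and 159, 165 and 170.3 FPKM in T2Plus line and a ratio of 1.29. Both had lower values in every T2Plus sample, and neither passed the test, with adjusted p of 0.158 and 0.0510 by limma.

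A list of usual reference genes, formed by words in the protein names, held 4 unigenes of the table. Such words can also take in proteins that are not in common use as references. Only 1 of the 4 unigenes had a mean of 100 to 500 FPKM, and it was not flat. The others lay outside that range and could not qualify. Usual reference genes that the shortened annotation lacks were not examined, so nothing is read about such genes in general. Eukaryotic translation initiation factor 6-2, a factor of ribosome assembly, read 125, 200.5 and 152 FPKM in T2 line and 108, 111 and 119 FPKM in T2Plus line, with a ratio of 1.86 and a coefficient of variation of 26.0%. The peptidyl-prolyl isomerase FKBP42, which assists protein folding, read 73.5, 90.9 and 82.3 FPKM in T2 line and 77.4, 71.9 and 74.1 FPKM in T2Plus line, with a ratio of 1.26 and a coefficient of variation of 9.16%. The 2 lines overlapped in FKBP42 and did not overlap in the initiation factor.

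A unigene named histone H3-2, a core protein of chromatin, was listed at 0 in all T2 samples and read 14.3, 18.4 and 49.7 FPKM in T2Plus line, with an adjusted p of 0.00241 by limma. It is a single unigene, and other histone H3 unigenes that the shortened annotation lacks were not examined. Nothing is therefore read about the histone H3 transcripts of T2 line as a whole. Elongation factor 2, which moves the ribosome along the transcript, had a mean of only 3.97 FPKM. These 4 had been looked for by name, and 1 of the 4 was called between the lines, where 13.5% of all unigenes were.

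The further name lists held no flat unigene in this range of abundance either. With at most 2 unigenes of a list in that range, where 7.98% of all unigenes were flat, nothing is read from this. They were 11 unigenes of the ribosome and translation, of which 2 had a mean of 100 to 500 FPKM, 9 of the proteasome and ubiquitin with 2, 27 chloroplastic with 1, 21 mitochondrial with 1, 6 of RNA processing with 2, and 43 with a best match outside green plants with 2. The lists of 4 unigenes of vesicle traffic and 10 transposons had none in that range. Of the unigenes tested, 4 of 25 chloroplastic fell, 1 of 14 mitochondrial rose and 1 of 37 outside green plants fell by limma. Over all unigenes tested 6.3% fell and 7.22% rose. At an unadjusted p under 0.05 were 10 chloroplastic, 4 mitochondrial and 11 outside green plants, against 29.8% of all unigenes. None was called by limma of 11 in translation, 6 in proteasome and ubiquitin, 5 in RNA processing, 3 in vesicle traffic and 5 transposons, with 3, 2, 2, 1 and 0 at an unadjusted p under 0.05.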

How the data were processed

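Per the submitters' processing notes, reads were cleaned with Trimmomatic 0.36 and FastQC 0.11.5. Trinity (k-mer of 25) served for de novo assembly, reads were mapped back to it, and the deposited isoform table holds TMM-scaled FPKM from RSEM for every sample. Which aligner and which versions of Trinity and RSEM were run is not given in the sources used here. RSEM also writes TPM, and the file leaves unsettled which column was taken. With 65535 isoforms the table covers only some of the assembly, and isoforms of a unigene may be missing. The deposited FPKM values hold no read totals, so depth was taken from them only relative to T2 replicate 1, and no counting interval is given. The authors used DESeq on counts that were not used here. Columns of the authors' own comparisons (log2 changes, p-values and FDR in the study's tables) were not used.

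Sums per unigene were made in Python 3.11.15 (pandas 2.3.3, numpy 2.4.6) and figures with matplotlib 3.10.9. Unigenes and isoforms with at least 1 FPKM in at least 3 samples were compared between the lines in R 4.3.3 by limma 3.58.1, using log2(FPKM + 1), a trended variance and Benjamini-Hochberg adjustment over all features tested. Because of the added 1, changes of low features are understated. Replicate numbers were not used as pairs, since the sources name no pairing. Deviations of same-numbered samples correlated at 0.04, -0.03 and -0.07, which cannot exclude a shared handling with 3 samples per line. Abundance limits were kept on a common scale when samples were rescaled. Pairwise variation is the mean, over the other members, of the SD of the log2 ratio of a member to each.

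The members, name lists and tests were chosen with earlier results of these data known. Named are the 10 flattest and 5 strongest members, the 3 with the largest line difference in each direction, those next to the limits, members with called or several major isoforms (at least 10% of the sum), called neighbours, and the usual reference genes. The name lists were formed from protein names in the study's annotation (usual reference genes, translation, proteasome and ubiquitin, chloroplastic, mitochondrial, RNA processing, vesicle traffic, transposons, best matches outside green plants). Alternatives were other scalings, ratio limits of 1.2 and 1.5, the highest isoform alone, a pseudocount of 0.1, no filter, a mean of at least 5 FPKM, no variance trend, the replicate block, and each sample left out in turn.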

Additional observations from a re-analysis of the deposited data

How the results depend on the processing

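The number of 60 flat strong unigenes became 35 with a ratio limit of 1.2, 232 with a limit of 1.5 and 91 with quantile normalization, and lay between 50 and 78 with the other scalings and the highest isoform. The highest isoform differs from the sum only in unigenes with several isoforms, so 52 of the 60 members could not change with it. With each sample left out in turn it ran from 62 to 187, the latter without T2 replicate 2 and the others up to 70. The median log2 line difference of the members, -0.01 as deposited, was 0.13 with equal sums, 0.14 with the factors divided out and 0.26 with quantile normalization, and ran from -0.05 to 0.03 with samples left out. The cause of these shifts was not tested.

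Of the 3860 unigenes called by limma, 2061 were higher and 1799 lower in T2Plus line. The count became 2215 (1073 higher, 1142 lower) without a filter on low values and 1803 (753 higher, 1050 lower) at a mean of at least 5 FPKM, which tests fewer unigenes, and ran from 2733 to 3575 with a sample left out. With the replicate number as a block, although the sources name no pairing of the samples, 2315 were called (1169 higher, 1146 lower). The block changed no call of a named isoform or neighbouring unigene. The 3 called neighbours of flat unigenes became 1 to 2 with a sample left out, and 1 without T2 replicate 1, T2Plus replicate 2 or T2Plus replicate 3. The 2 called isoforms were called under every setting tried, and a further isoform was called without T2 replicate 2. In fits that left a sample out, 2 samples stood against 3.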

Other observations

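Level transcripts were not confined to the range of 100 to 500 FPKM. Over all means of at least 1 FPKM, 389 unigenes had a highest sample of at most 1.25 times the lowest, of which 7 had a mean of at least 500 FPKM. The weakest of these 7 was TRINITY_DN5913_c0_g1, which read 522, 513 and 513 FPKM in T2 line and 506, 521 and 576 FPKM in T2Plus line. Its ratio of 1.14 came from T2Plus replicate 3, and the other 5 samples lay between 506 and 522 FPKM.

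Below the range, TRINITY_DN11110_c0_g1 read 90.9, 96.1 and 95.4 FPKM in T2 line and 100.7, 99.3 and 110.4 FPKM in T2Plus line. All its T2Plus samples were above its T2 samples, by 9.92% between the line means, within a ratio of 1.21.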
